A study of Homo sapiens with 4 samples.

Results

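The endoplasmic reticulum (ER) chaperones and the unfolded protein response were examined in breast cancer cells depleted of SNRNP40, a spliceosomal protein that belongs to the U5 particle. The set was given as a list of 32 gene symbols drawn up by function, with earlier results of these data known. All 32 were found among the 23217 gene symbols of the deposited table. The cells were LV-M100, a lowly variable clonal subpopulation of MDA-MB-231, so that every value comes from descendants of a single clone. RNA was collected 48 h after transfection, depleted of ribosomal RNA and sequenced as 4 libraries. Control replicate 1 received NC1 (IDT) and control replicate 2 received the BLOCK-iT Fluorescent Oligo (Life Technologies), while the depleted replicates received siSNRNP40 #1 and siSNRNP40 #2. All 4 libraries shared the transfection itself, and no untransfected cells were analysed here.

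Secreted and membrane proteins enter the ER through the Sec61 channel and fold there with the help of Hsp70 and Hsp90 chaperones, sugar-binding chaperones and enzymes that form disulfide bonds. Proteins that do not fold are returned to the cytosol and destroyed, a route called ER-associated degradation. When unfolded protein accumulates, the sensors IRE1 (ERN1), PERK (EIF2AK3) and ATF6 raise transcription of chaperone and degradation genes, while PERK also slows translation. IRE1 acts by an unusual splicing step outside the spliceosome, the cytosolic removal of a short intron from XBP1 mRNA.

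Each transcript carried 1 FPKM value per condition (fragments scaled by transcript length and by mapped fragments), in which the 2 libraries of a condition are combined. No value therefore has an error, neither replicate spread nor depth is known, and no difference could be tested from these values. FPKM was summed over the transcripts of a gene, and a gene was counted as measured when its mean over both conditions was at least 1. This held for 12334 genes and for 31 of the 32 members, ERO1LB being the exception. Changes are given as log2 of siSNRNP40 over siControl without a pseudocount. The siRNA target SNRNP40 had an FPKM of 40.4 with siControl and 6.12 with siSNRNP40 (log2 fold change -2.72). The markers of the line VIM, CD44, EGFR, CAV1, FN1 and AXL all exceeded an FPKM of 18, ESR1, PGR and CDH1 were at most 0.098, and PTPRC, CDH5 and ALB were listed at 0, but EPCAM (10.6 and 10.0) and ERBB2 (6.56 and 7.42), which were placed among the low markers, were present. GATA3 (1.32 and 1.18) and PECAM1 (0.922 and 1.202) were near the limit for a measured gene, and CD3E was below 0.1. A list of 13 interferon-stimulated genes, chosen with earlier results of these data known, moved with the condition. Of these, 7 of 13 were higher by more than 0.5 and none was lower by that much, where 646 of 12334 genes were higher by more than 0.5. The summed FPKM of the 13 genes was 640.2 with siControl and 974.2 with siSNRNP40. Their part in the values below was not tested.

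The promoters of the members carry sequences by which this response is known to act, and these are shown because most members that bear them changed little. The ER stress element (ERSE), bound by ATF6 and by spliced XBP1 together with NF-Y, was searched as CCAAT and CCACG with 9 bases between them, and ERSE-II as ATTGG and CCACG with 1 base between them, on both strands. Windows ran from 250 bases before to 50 bases after each annotated start (RefSeq, GRCh38.p14), and 30 of the 32 members had one. ERSE was found in 8 of these 30 (26.7%), against 8 of 9351 other measured genes (0.0856%) and 25 of 27305 genes in the whole table (0.0916%). ERSE-II was found in 3 of 30 members (10.0%) and in 10 of 9351 other measured genes (0.107%). The motifs were taken as those of this response and the members by function, so their higher share is no independent result. A match is a description of the letters and not evidence of binding in these cells. The matches of ERSE read as follows along each gene, with 10 flanking bases or as many as the window holds, and the motif letters in capitals.
CALR (chr19:12938374-12938412, plus strand, 225 to 207 bases before the start): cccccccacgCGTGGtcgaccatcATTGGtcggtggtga
CANX (chr5:179698768-179698806, plus strand, 151 to 133 bases before the start): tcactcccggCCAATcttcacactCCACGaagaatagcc
CRELD2 (chr22:49918544-49918582, plus strand, 80 to 62 bases before the start): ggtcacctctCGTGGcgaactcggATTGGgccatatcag
ERO1LB (chr1:236282173-236282208, minus strand, 243 to 225 bases before the start): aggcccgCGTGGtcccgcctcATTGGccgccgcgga
HSP90B1 (chr12:103930206-103930244, plus strand, 194 to 176 bases before the start): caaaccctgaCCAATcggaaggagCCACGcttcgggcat
HSP90B1 (chr12:103930311-103930349, plus strand, 89 to 71 bases before the start): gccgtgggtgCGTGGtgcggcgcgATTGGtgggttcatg
HSPA5 (chr9:125241381-125241419, minus strand, 66 to 48 bases before the start): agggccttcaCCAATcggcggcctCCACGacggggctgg
PDIA6 (chr2:10812843-10812881, minus strand, 86 to 68 bases before the start): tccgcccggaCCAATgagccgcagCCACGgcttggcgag
XBP1 (chr22:28800593-28800631, minus strand, 52 to 34 bases before the start): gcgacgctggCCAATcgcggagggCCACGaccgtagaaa

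HSP90B1 carried the element once in each orientation, and the site of CANX lay within 3 of its annotated windows that start at different bases. The matches of ERSE-II were fewer, and HYOU1 had a pair of them.
HERPUD1 (chr16:56932015-56932045, plus strand, 117 to 107 bases before the start): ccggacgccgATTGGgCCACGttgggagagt
HYOU1 (chr11:119057264-119057294, minus strand, 79 to 69 bases before the start): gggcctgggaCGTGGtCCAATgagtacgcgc
HYOU1 (chr11:119057370-119057400, minus strand, 185 to 175 bases before the start): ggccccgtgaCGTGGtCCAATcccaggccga
SDF2L1 (chr22:21642104-21642134, plus strand, 188 to 178 bases before the start): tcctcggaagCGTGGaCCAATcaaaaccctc

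The ERSE of HSPA5, the gene of the chaperone BiP, lay closest to its start of all but the site of XBP1. The 250 bases before the start of HSPA5 hold 4 matches of CCAAT on either strand, of which 1 is part of the exact ERSE in capitals.
HSPA5 (chr9:125241344-125241593, minus strand): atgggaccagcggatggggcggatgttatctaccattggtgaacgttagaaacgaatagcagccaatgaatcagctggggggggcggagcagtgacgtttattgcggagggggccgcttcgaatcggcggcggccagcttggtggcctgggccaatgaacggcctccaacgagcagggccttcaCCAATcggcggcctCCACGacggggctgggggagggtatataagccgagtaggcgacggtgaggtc

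CCAAT alone was common, in 25 of 30 members (83.3%) and 43.8% of the other measured genes, and it overlaps every ERSE and ERSE-II by construction. TGACGTG, the core of the element preferred by spliced XBP1, occurred in HYOU1 and SEC61A1 (6.67% of members and 3.32% of the other measured genes). The map of these matches shows that all lay upstream of the start.

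**Figure D1:**
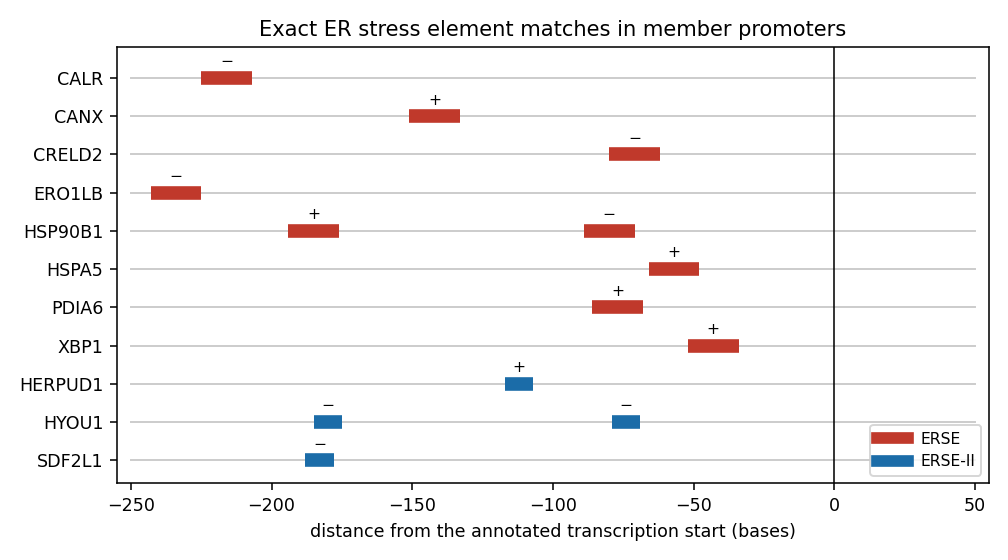
Position of exact ERSE (red) and ERSE-II (blue) matches, in bases from the annotated start at 0, in the 11 members that have one; + and − give the strand of the motif relative to the gene. All 13 matches lie before the start, from 243 to 34 bases upstream.

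As a whole the ER genes differed little in level between the conditions. The summed FPKM of the 32 genes was 2964 with siControl and 2999 with siSNRNP40, which is 0.574% and 0.580% of all FPKM. Over the 31 measured members 14 were higher and 17 lower, with a median log2 fold change of -0.023 against 0.0034 over all 12334 genes, and the member median became 0.0072 with upper-quartile scaling. The median absolute change was 0.13 for members and 0.17 for all genes. The study's limit of an absolute log2 fold change above 1 was passed by 0 of 31 members, where the background over all genes was 1.47%. A lower limit of 0.5 was passed by 1 member, CRELD2 (3.23%), against 10.3% of all genes. Among genes averaging 10 FPKM or more, which scatter less, the shares were close, at 1 of 24 members (4.17%) and 4.96% of 6394 genes. A limit of 0.25, added after the data were seen, was passed by 6 members (19.4%), of which 4 were higher and 2 lower, against 33.7% of all genes. Among the same abundant genes it was passed by 3 of 24 members (12.5%) against 25.0%. The members were thus no more often past these limits than genes in general, and without replicate values no test of that difference could be made.

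**Figure D2:**
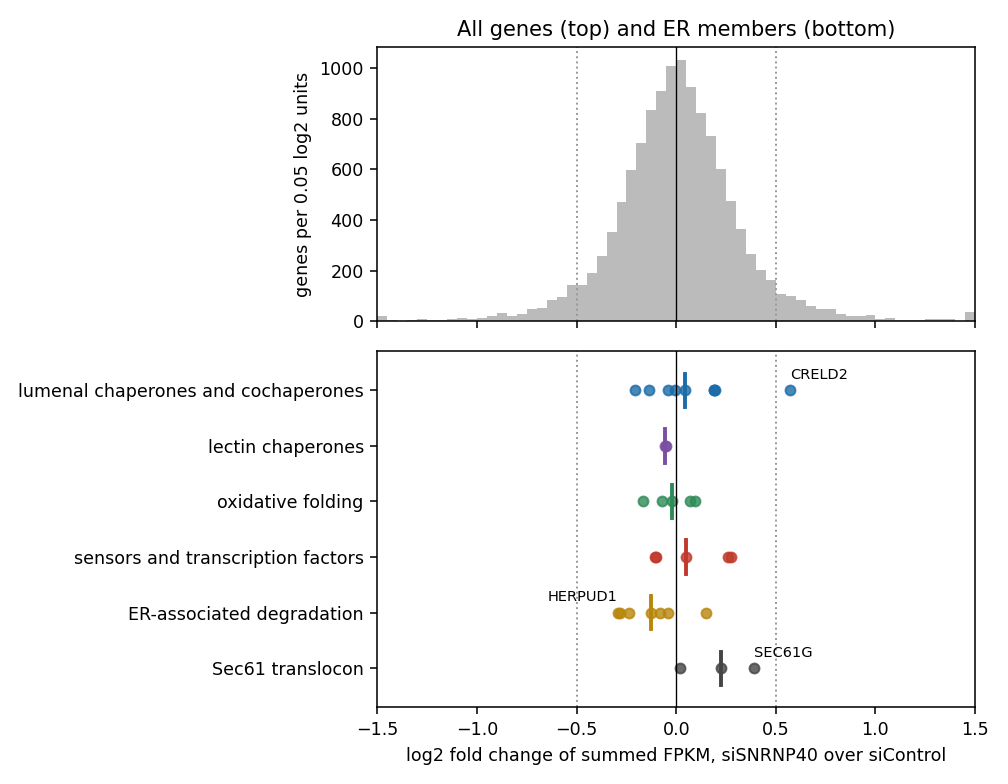
The upper panel counts all 12334 measured genes by log2 fold change (siSNRNP40 over siControl), with genes beyond the axis placed in the outermost bins. The lower panel shows the 31 measured members as points by role, with vertical bars at the median of each role and dotted lines at -0.5 and 0.5; only CRELD2 at 0.57 lies outside the dotted lines.

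The lumenal Hsp70 and Hsp90 chaperones were abundant and differed little between conditions. HSPA5, which encodes BiP, the central Hsp70 of the ER and the usual marker of the unfolded protein response, had an FPKM of 68.4 with siControl and 68.0 with siSNRNP40 (log2 fold change -0.0079, and 0.023 with upper-quartile scaling). HSP90B1, the gene of the Hsp90 paralogue GRP94, had 439.7 and 380.7 (-0.21), so that the most abundant of these Hsp70 and Hsp90 chaperones was lower by 13.4%. The assembled locus of HSP90B1 on chromosome 12 also contains MIR3652, which is listed separately. HYOU1, a large Hsp70 relative that exchanges nucleotide on BiP, had 43.6 and 49.8 (0.19, and 0.091 for its most expressed transcript alone). HSP90B1 and HYOU1 thus differed in opposite directions, while HSPA5 hardly differed.

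The cochaperones of BiP and the small stress-induced proteins were more mixed. DNAJB11, a J-protein that brings BiP to nascent chains, had an FPKM of 101.0 and 115.4 (log2 fold change 0.19). DNAJC3, a J-protein also called P58IPK, had 25.9 and 25.2 (-0.039). DNAJB9, a J-protein also called ERdj4 and a standard target of spliced XBP1, had 12.9 and 11.7 (-0.14). SDF2L1, a partner of the J-proteins, had 6.60 and 6.80 (0.044). MANF, a small secreted protein retained in the ER by BiP, had 113.9 and 129.7 (0.19). CRELD2, a stress-induced protein of the ER lumen, had 8.33 and 12.4 (0.57, chr22:50312283-50321186, hg19), higher by 48.7% and at percentile 96.1 of the changes of all genes. Its promoter holds an ERSE 80 to 62 bases before the start, on the other strand from that of HSPA5 (66 to 48 bases). Any part of this element in the change was not tested. Of the 9 lumenal members CRELD2 alone (11.1%) was past 0.25, against 33.7% of all genes.

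The lectin chaperones, which hold glycoproteins by their sugar chains, had the highest mean FPKM of all members over both conditions, although HSP90B1 exceeded CANX with siControl. Calreticulin (CALR) had an FPKM of 513.8 with siControl and 495.4 with siSNRNP40 (log2 fold change -0.053). Its membrane-bound relative calnexin (CANX) had 430.8 and 414.6 (-0.055). Both differed by less than 4% and both have an ERSE.

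The enzymes of oxidative folding were the role with the narrowest range of changes among those with more than 2 members. The disulfide isomerases PDIA6 (192.6 and 189.5, log2 fold change -0.023), P4HB (119.8 and 113.8, -0.074) and PDIA4 (110.4 and 98.2, -0.17) were slightly lower with siSNRNP40, though PDIA6 came to 0.0072 with upper-quartile scaling. PDIA3, which works with the lectin chaperones on glycoproteins, had 91.7 and 97.8 (0.093). ERO1L, the oxidase that recharges the isomerases, had 90.2 and 94.5 (0.067). Its paralogue ERO1LB, best known from secretory tissues, was close to absent, at 0.615 and 0.618, and was not counted. The assembled loci of PDIA3 on chromosome 15 (44038590 to 44094769, hg19) and PDIA6 on chromosome 2 (10861775 to 10952960) extend past these genes, with 47.9% and 32.3% of their bases inside the annotated gene.

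**Figure D3:**
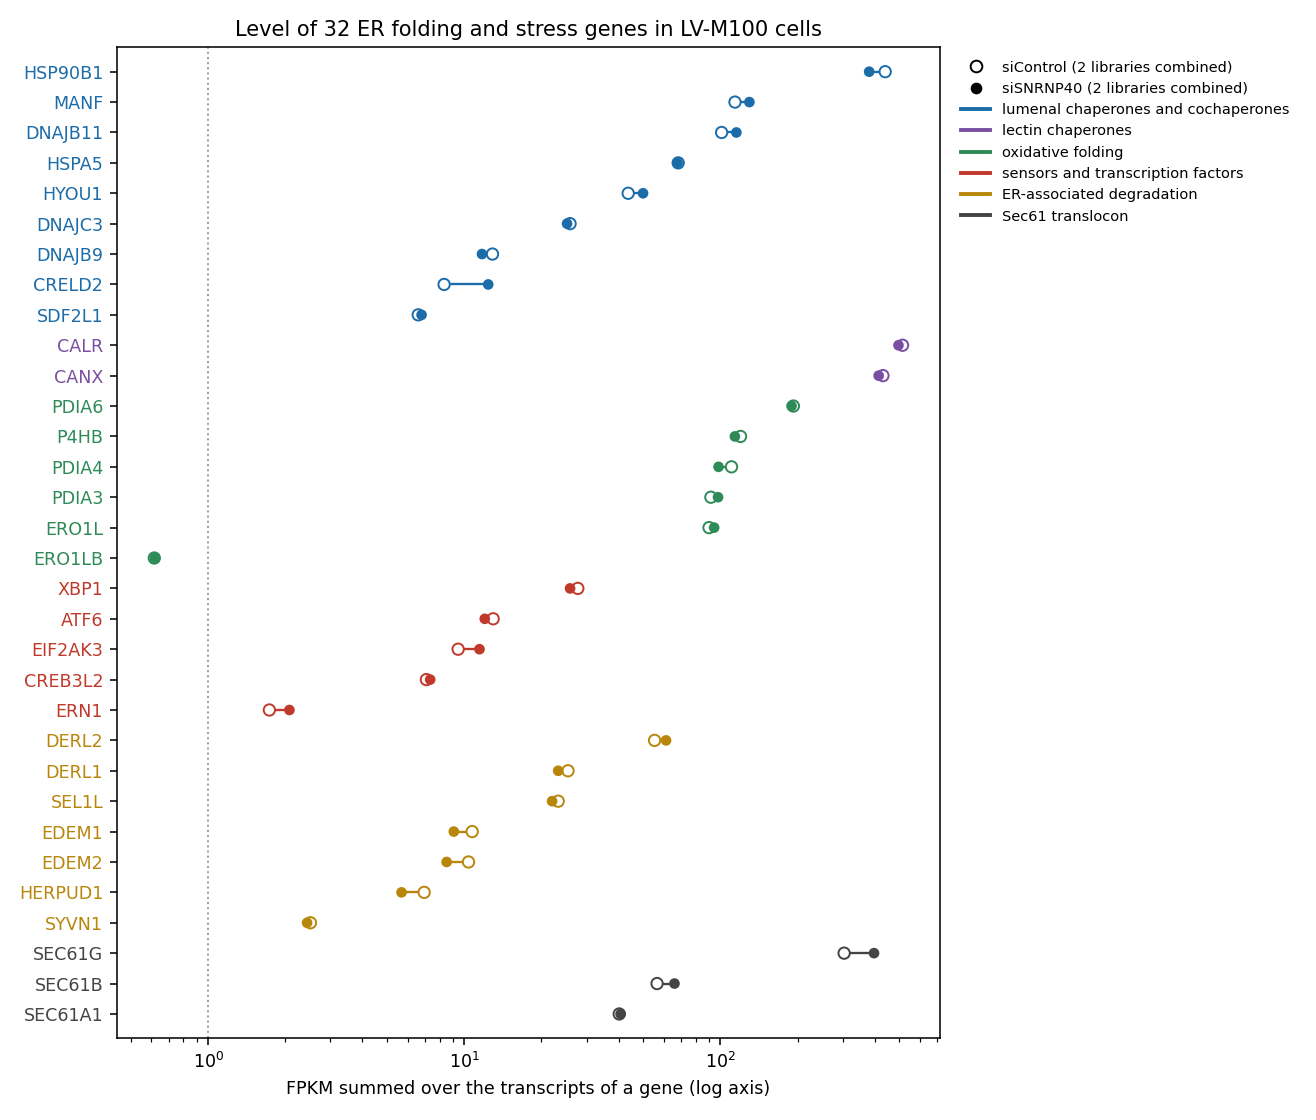
FPKM of each member on a log axis, with siControl as open and siSNRNP40 as filled circles joined by a line, coloured by role; each circle combines 2 libraries and has no error. Levels range from 0.615 for ERO1LB to 513.8 for CALR, and the widest relative gap is that of CRELD2.

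The sensors and transcription factors had lower levels than the most abundant chaperones, though all but ERN1 overlapped the range of the less abundant ones such as DNAJB9 and SDF2L1. Among the sensors, ERN1 was the lowest, with an FPKM of 1.73 and 2.07 (log2 fold change 0.26). EIF2AK3 had 9.45 and 11.5 (0.28). ATF6, which is cut in the Golgi to release a transcription factor, had 13.0 and 12.0 (-0.11). ERN1 and EIF2AK3 were higher at percentiles 83.8 and 85.1 of all genes, and ATF6 was lower at percentile 32.6, so the sensors did not share a direction. XBP1 had 27.7 and 25.9 (-0.10), and CREB3L2, a relative of ATF6 that drives secretory pathway genes, had 7.11 and 7.35 (0.049, and -0.032 for its most expressed transcript alone).

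The degradation genes were mostly lower, by small amounts. Of 7 members, 6 were lower and 1 higher, where 50.5% of all genes were higher. Their median was -0.13, and it was -0.18 for the 6 averaging 5 FPKM or more, -0.079 for the 3 averaging 10 FPKM or more and -0.045 for the 2 with a single transcript. The other degradation genes listed did not share this direction, with 10 of 17 measured genes higher, 7 lower and a median of 0.011. HERPUD1, a membrane protein of the degradation complex, had an FPKM of 6.97 and 5.68 (log2 fold change -0.29). EDEM2 and EDEM1, which trim the sugars of misfolded glycoproteins, had 10.4 and 8.52 (-0.28) and 10.7 and 9.09 (-0.24). DERL1, a membrane component of the exit route, had 25.4 and 23.2 (-0.13). SEL1L and SYVN1, the adaptor and the ubiquitin ligase (HRD1) of the central complex, had 23.24 and 21.996 (-0.079) and 2.51 and 2.43 (-0.044). DERL2, a relative of DERL1, was the exception at 55.3 and 61.3 (0.15). None of the 7 degradation genes reached 0.5 in either direction, where 10.3% of all genes were past it.

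The Sec61 channel subunits were all higher, unequally. SEC61G (chr7:54819940-54826939, hg19), the small gamma subunit, had an FPKM of 303.9 and 397.6 (log2 fold change 0.39), the largest difference in FPKM of any member (93.7). SEC61B, the small beta subunit, had 56.5 and 66.1 (0.23). SEC61A1, which forms the pore, had 40.2 and 40.7 (0.018). With SEC61G the summed FPKM of the 3 genes was 400.7 and 504.5.

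Among the shortest members, transcript length moved with these values. Members whose canonical transcript (GENCODE, GRCh37) has at most 1000 bases, namely SEC61G (425), SEC61B (564), SDF2L1 (825) and MANF (909), were all higher with siSNRNP40, with a median log2 fold change of 0.21. Over all 810 measured genes of that length 60.4% were higher and the median was 0.063, falling over longer classes to -0.046 for 961 genes above 8000 bases. Among genes averaging 10 FPKM or more these medians were 0.066 and -0.073. The longer members did not follow these classes in order, with a median of -0.053 and 2 of 5 higher up to 2000 bases, -0.074 and 2 of 11 up to 4000, and 0.049 and 6 of 11 up to 8000, where all genes gave -0.036. Across 11415 genes Spearman's rho between change and length was -0.135 (genes of the same libraries, not independent), and it was also -0.135 across the 31 members. SEC61G, SEC61B and MANF exceeded the median of their length class by more than 0.1, whereas SDF2L1 (0.044) lay below it. The part of length in these values was not tested. SEC61A1, with 3568 bases, lay near the median of its class (0.0064).

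**Figure D4:**
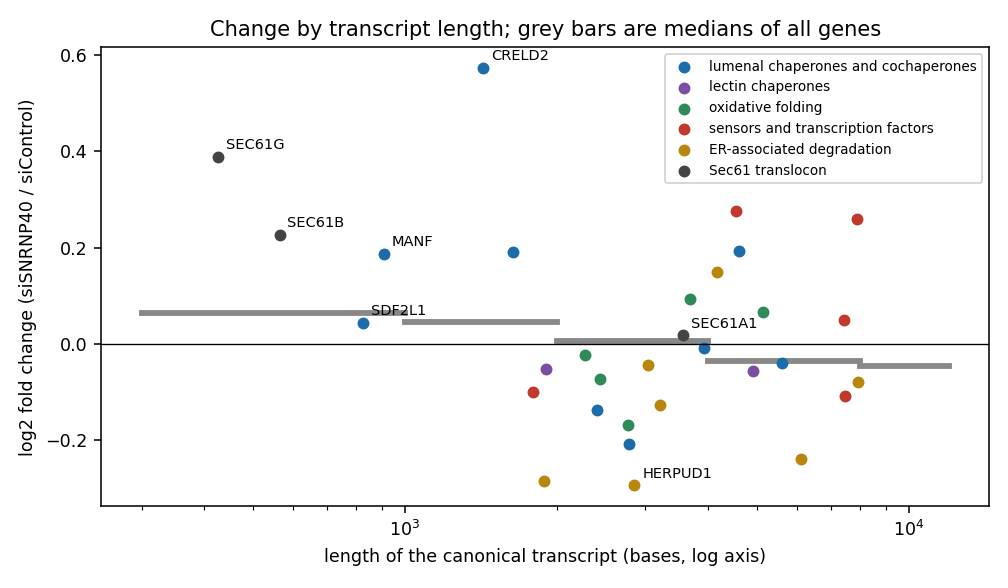
Log2 fold change of the 31 measured members (points, by role) against the length of their canonical transcript on a log axis, with grey bars at the median of all measured genes in 5 length classes, of which the outer ones are open-ended. The 4 shortest members lie above 0, as does the median of their class.

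The genes with several listed transcripts allow the change of a gene to be set beside that of its transcripts. Of the 32 members, 21 had a single listed transcript and 11 had 2 or 3. Cuffdiff divides shared fragments between overlapping transcripts by a model, the table identifies them by assembly numbers, and all transcripts of a member are listed at the same locus, so they are called here by order of mean FPKM. Among 37 member transcripts that averaged 1 FPKM or more and were above 0 in both conditions, 1 passed an absolute log2 fold change of 1. The background was 10.5% of 16691 transcripts. Left out were 170 transcripts listed at 0 in 1 condition, of which 1 belongs to a member, the second of HERPUD1 described below. The transcript past 1 was the second of SEL1L, with an FPKM of 0.955 and 2.80 (log2 fold change 1.55, and 0.96 with a pseudocount of 1). Its siControl value was below 1, so it was counted only through its value with siSNRNP40.

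HERPUD1 (chr16:56965748-56977793, hg19) was the member whose transcripts changed places. Its first transcript had an FPKM of 3.15 with siControl and 4.07 with siSNRNP40. The second had 3.66 with siControl and was listed at 0 with siSNRNP40, and the third had 0.158 and 1.61. The second thus went from 52.5% of the gene's FPKM to none, while the first went from 45.2% to 71.7% and the third from 2.27% to 28.3%. The sum of the 3 changed by -0.29 on the log2 scale, whereas the first transcript, the most expressed by the mean of both conditions, gave 0.37 alone. With siControl the second was the more expressed, so that this ranking itself rests on the second being listed at 0 with siSNRNP40. A largest shift of 52.5 percentage points lay at percentile 96.2 of 5282 measured genes with several transcripts, whose median was 7.35. The other members shifted far less, with a median over all 11 of 2.68 points.

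XBP1 (chr22:29190548-29196560, hg19) has 2 listed transcripts, whose shares differed little between conditions. The first had an FPKM of 21.7 and 20.6 (log2 fold change -0.076) and the second 5.99 and 5.24 (-0.19). The share of the second was 21.6% with siControl and 20.3% with siSNRNP40. Which of them, if either, represents the mRNA cut by IRE1 is not given in the sources used here, so no statement about IRE1 activity is made. The minor transcripts of HYOU1 (5.97 and 9.76, 0.71) and CANX (21.2 and 31.5, 0.57) were higher, and their shares moved by 5.89 and 2.68 points.

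**Figure D5:**
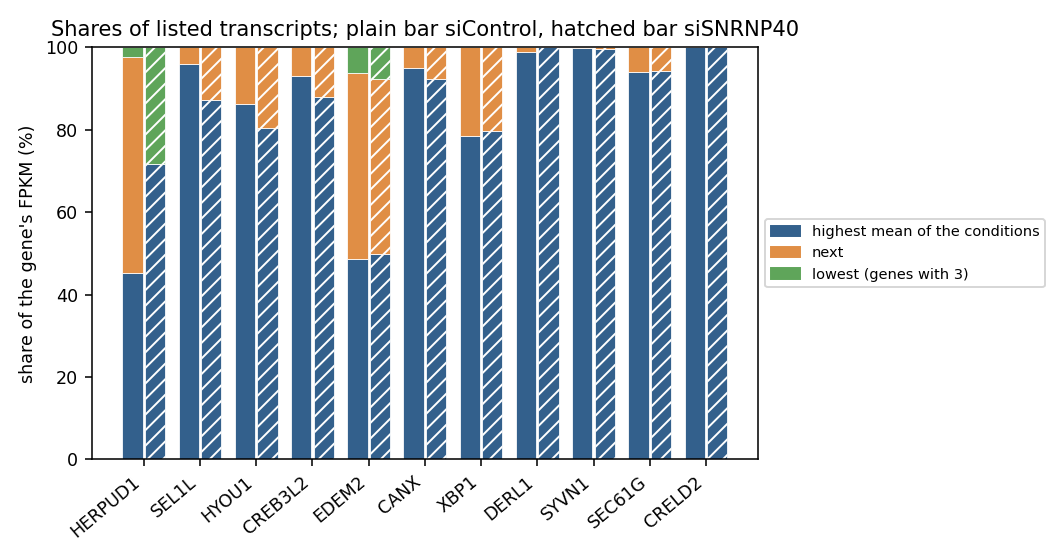
Share of each listed transcript in the FPKM of its gene (%) for the 11 members with several transcripts, with siControl as plain and siSNRNP40 as hatched bars and colours by order of mean FPKM. In HERPUD1 the second transcript takes 52.5% with siControl and is listed at 0 with siSNRNP40, while XBP1 stays within 1.36 points.

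Members with and without an element can be set side by side. The 10 measured members with ERSE or ERSE-II had a median log2 fold change of -0.038 and a range from -0.29 (HERPUD1) to 0.57 (CRELD2). The 19 members with neither had a median of 0.018 and a range from -0.28 (EDEM2) to 0.39 (SEC61G). The ranges overlapped almost entirely, though the median absolute change was 0.078 with an element and 0.15 with neither. These differences were not tested.

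Other genes of the ER, from a list of 73 of which 72 were in the table and 71 were measured, also differed little. Their median log2 fold change was 0.026 (-0.013 among genes with a single transcript). Of the 71 genes, 42 were higher and 29 lower, where 50.5% of all genes were higher. A limit of 0.5 was passed by 2 (2.82%), against 10.3% of all genes and 4.96% of those averaging 10 FPKM or more. The highest were SIL1, a second nucleotide exchange factor of BiP (52.5 and 74.7, 0.51), FKBP2, a proline isomerase of the lumen (112.3 and 156.7, 0.48), and UBE2G2, a ubiquitin-conjugating enzyme of degradation (22.5 and 29.2, 0.38). The lowest were SEC23B, a coat protein of vesicles that leave the ER (30.0 and 17.5, -0.78), LMAN1, a cargo receptor for them (24.77 and 20.02, -0.31), and STT3B, a catalytic subunit of the oligosaccharyltransferase (148.0 and 121.6, -0.28). The 14 cytosolic and mitochondrial heat shock genes had a median of -0.033 (0.019 among genes with a single transcript). None of them passed 0.5, but 13 averaged 10 FPKM or more, where only 4.96% of all genes passed it.

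Among 9 genes listed for the PERK arm of the response, 8 were measured, with 4 higher and 4 lower and a median of -0.015. A limit of 0.5 was passed by 2 of the 8 (25.0%), 1 higher and 1 lower, against 10.3% of all genes. The limit of 0.25 was passed by 3 (37.5%), against 33.7%. ATF4, the transcription factor translated when PERK is active, had an FPKM of 147.1 and 135.4 (log2 fold change -0.12), and its target DDIT3 (CHOP) had 10.4 and 9.99 (-0.060). ASNS, asparagine synthetase, was the lowest of the 8 with 20.7 and 11.2 (-0.89), and ATF3 the highest with 1.24 and 1.85 (0.58). PPP1R15A, which restores translation after PERK activity, had 50.1 and 66.8 (0.41), TRIB3 had 2.48 and 2.23 (-0.15), SESN2 had 1.101 and 1.197 (0.12) and PPP1R15B had 17.7 and 18.0 (0.029). CHAC1 was below the limit, with 0.787 and 0.180.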

How the data were processed

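RNA-seq values of 4 libraries (2 siControl, 2 siSNRNP40, grouped by sample title) were taken from the authors' deposited table of 44578 transcripts. Per the paper's methods and the submitters' processing notes, reads were trimmed with cutadapt 1.2.1, mapped with TopHat 2.0.8 to hg19, merged with Cufflinks and cuffmerge, and quantified with cuffdiff 2.0.2. FPKM values as deposited are the authors' pooled value per condition and transcript, so no replicate error, depth or paired fit could be had, and tests that need single libraries were not made. The table's fold change, test statistic, p- and q-value columns hold the authors' own comparison and were not used. FPKM was summed per gene symbol, genes with a mean of at least 1 were kept, and changes past 0.5 and 1 (log2) were counted. The members and lists were chosen with earlier results of these data known. All members were named, with the 3 highest and 3 lowest other ER genes and the genes listed for the PERK arm. Loci were made 1-based. Promoters came from RefSeq (GRCh38.p14) by symbol or synonym, and transcript lengths from GENCODE on GRCh37, found for 92.5% of measured genes. The gene step was tested on simulated data. Alternatives changed the filter, the pseudocount, the scaling, the summing and the contigs. Python 3.11.15, numpy 2.4.6, pandas 2.3.3 and matplotlib 3.10.9 were used.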

Additional observations from a re-analysis of the deposited data

How the results depend on the processing

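No paired analysis was possible because each condition has 1 pooled value, and no replicate could be left out either. A log2 value was counted as moved from 0.1 and a count beyond 1.5 times. Filters cannot change the value of a single member, and the scalings shift all genes by less than 0.1. With a pseudocount of 1 all 31 members stayed within 0.1, and with the most expressed transcript alone 28 did, while HYOU1 (0.091), HERPUD1 (0.37) and SEL1L (-0.22) moved. The median of the sensors, 0.049, was 0.26 among 3 genes with a single transcript and -0.10 among 3 genes at a mean FPKM of at least 10. That of the Sec61 subunits, 0.23, was 0.12 among the 2 with a single transcript. Past 0.5 there was 1 member, and 0 of 20 with a single transcript, against 11.1% of the 7052 measured genes with a single transcript. CRELD2 drops out there because of a second transcript, listed at 0.0018 with siControl and 0 with siSNRNP40. Past 0.25 there were 6 members, 2 of 20 with a single transcript and 3 of 24 at a mean FPKM of at least 10 (this limit and that filter were added after the data were seen). No member's own value differs under these settings, so these counts fell because members left. At a mean FPKM of at least 10 the share of members past 0.25 also fell, from 19.4% to 12.5%. That of all genes fell from 33.7% to 25.0%. The share of all genes past 0.5, 10.3%, was 24.1% without a filter, 5.85% and 4.96% at a mean FPKM from 5 and from 10, 5.76% with a pseudocount of 1 and 15.7% with the most expressed transcript. Depth is unknown, so its limits cannot be given.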

Other observations

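ERSE or ERSE-II also occurred in the promoter window of 18 measured genes that are not members, with a median log2 fold change of 0.036 and 13 higher against 5 lower. FICD, an enzyme that modifies BiP, had an FPKM of 2.45 with siControl and 2.51 with siSNRNP40 (0.036). ALG12, a mannosyltransferase that builds the sugar precursor for glycoproteins, had 5.01 and 5.64 (0.17), and NUCB1, a calcium-binding protein, had 15.7 and 16.0 (0.024). SERP1, a small protein that stabilises membrane proteins during ER stress, was the lowest of the 18, with 20.7 and 15.2 (-0.45). SYNPO, an actin-associated protein, was the highest, with 0.784 and 1.35 (0.78), and was counted as measured only through its value with siSNRNP40. These genes were named after their values were seen.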
